A study of Mus musculus with 16 samples.

Results

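The members examined were 4 genes whose protein products are growth factors secreted by the oocyte: Gdf9, Bmp15, Bmp6 and Fgf8. They were given by name, a choice made with earlier results of these data known, and each matched 1 of the 25965 gene entries of the expression table. The study followed DNA methylation and transcription while mouse oocytes grow. Oocytes from C57BL/6 wild-type females (C57BL/6Babr in the study's methods) that had not reached puberty were sorted by diameter, so that each library was made from a pool of many oocytes of 1 size class.

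RNA-seq libraries came in duplicate, A and B, for 4 size classes, of 10–30 and 40–45 μm and then of 50–55 and 60–65 μm in diameter, and 1 further column of values held fully grown germinal vesicle (GV) oocytes, which have no replicate. DNA methylation was measured by reduced representation bisulphite sequencing (RRBS), which samples CpG-rich sequence, in duplicate for each class from 40–45 μm upwards. Post-bisulphite adapter tagging (PBAT), which samples the whole genome, was applied to 1 library of 60–65 μm oocytes. No group received a treatment or carried a mutation. The larger size classes came from older animals, so that diameter and age cannot be told apart. Nothing in the labels says whether A and B came from separate mice, and p-values then measure only the spread between these libraries, which may be technical.

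Oocytes grow inside follicles, surrounded by granulosa cells, and signal to those cells through secreted proteins. GDF9 and BMP15 are closely related members of the transforming growth factor beta (TGF-beta) family, which bind pairs of serine-threonine kinase receptors on granulosa cells and act there through SMAD transcription factors. BMP6 belongs to the bone morphogenetic protein branch of the same family, whereas FGF8 is a fibroblast growth factor that binds tyrosine kinase receptors and is known to act with BMP15 on the metabolism of cumulus cells.

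The sequences of the Bmp6 and Bmp15 promoters are shown because they differ widely in CpG content, which sets how many positions bisulphite sequencing can read. Both cover the 250 bases before the RefSeq start site on GRCm38.p6, at chr13:38345466-38345715 on the plus strand for Bmp6 and chrX:6320725-6320974 on the minus strand for Bmp15. They are written 5′ to 3′ along the gene with CpG dinucleotides in capitals.
Bmp6 promoter: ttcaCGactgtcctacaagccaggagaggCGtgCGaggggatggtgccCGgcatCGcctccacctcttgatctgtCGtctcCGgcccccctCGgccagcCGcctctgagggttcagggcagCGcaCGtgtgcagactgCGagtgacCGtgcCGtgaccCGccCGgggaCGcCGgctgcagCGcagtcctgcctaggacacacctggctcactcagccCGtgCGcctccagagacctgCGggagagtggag
Bmp15 promoter: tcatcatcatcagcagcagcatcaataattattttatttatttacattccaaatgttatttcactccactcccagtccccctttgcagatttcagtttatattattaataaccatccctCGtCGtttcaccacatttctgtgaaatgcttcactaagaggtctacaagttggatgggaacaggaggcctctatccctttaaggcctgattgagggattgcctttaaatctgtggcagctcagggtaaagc

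Bmp6 held 22 CpGs in these 250 bases and Bmp15 held 2. With the first 50 transcribed bases included, the counts were 27 and 2, against a median of 7 over 32851 RefSeq promoters. Of these promoters, 84.5% held fewer CpGs than that of Bmp6 and 14.1% fewer than that of Bmp15. GC content over the 300 bases was 69.3% for Bmp6 and 41.7% for Bmp15. Promoter sequence of Gdf9 and Fgf8 is not shown.

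Both 300-base windows were searched on both strands for letters that oocyte transcription factors are known to bind. The homeodomain letters TAATTA occurred in Bmp15, at position -225 counted from the start site, and in 5.29% of all promoters, whereas TAATTG (8.0% of promoters) and TCAAGGTCA (0.423%) occurred in neither gene. E-box letters, CANNTG, occurred once in Bmp15, as CAAATG at -201, and at 2 places in Bmp6, as CACGTG at -127 and CACCTG at -51. They were also present in 72.3% of all promoters. TATAAA lay on the minus strand of Bmp15 at -155, and 13.6% of promoters held it. No match overlapped a match of another of these motifs, and CACGTG itself contains a CpG. A match describes the letters only.

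A second pair of sequences is shown because RRBS found methylation to differ there between size classes. They were chosen after the methylation values had been seen, as the group of shared RRBS cytosines in the gene body, no more than 200 bp from one to the next, with the highest mean level at 60–65 μm, with 10 bases added on each side. The Bmp6 stretch lies in intron 2 of the RefSeq transcript with 7 exons, at chr13:38471671-38471761 on the plus strand of GRCm38. The Fgf8 stretch lies in the last intron of all 7 RefSeq transcripts, at chr19:45737429-45737607 on the minus strand. CpGs are again in capitals, 3 in Bmp6 and 6 in Fgf8.
Bmp6 intron: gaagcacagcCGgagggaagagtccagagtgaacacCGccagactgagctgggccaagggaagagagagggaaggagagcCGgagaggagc
Fgf8 intron: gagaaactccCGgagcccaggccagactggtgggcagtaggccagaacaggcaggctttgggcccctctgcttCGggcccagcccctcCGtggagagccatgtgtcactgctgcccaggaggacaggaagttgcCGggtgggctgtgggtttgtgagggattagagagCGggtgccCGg

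Expression was given as RPKM, in which read numbers are divided by exon length and by library size, so that levels can be compared between genes but are relative to all RNA in a library. In pools of oocytes, fewer cells of a type and less RNA per cell cannot be told apart. The values rest on library totals of 99369453 to 198298127 reads. 
The label of the samples was checked against marker genes. The 10 oocyte markers summed to 2143 to 3548 RPKM per library and each was detected in all 9 columns. The 14 granulosa cell markers summed to 2.26 to 2.68 RPKM at 10–30 μm and 7.38 to 8.04 RPKM at 60–65 μm, with Foxl2, which defines granulosa cells, at 0.0642 RPKM or less throughout. Of those too low to be tested, Amh, Amhr2, Fshr, Inhbb, Kitl and Hsd17b1 were each higher in both 60–65 μm libraries than in both 10–30 μm libraries. Foxl2, Wt1, Gatm, Krt18 and Fst overlapped between these classes. The 10 theca and stroma markers summed to 2.89 to 4.05 RPKM at 10–30 μm and 1.47 to 1.49 RPKM at 60–65 μm. The steroid-producing and receptor genes of theca cells in this list (Cyp17a1, Cyp11a1, Star, Hsd3b1 and Lhcgr) were too low to be tested and lay the other way, each higher in both 60–65 μm libraries than in both 10–30 μm libraries. Cyp17a1, which defines theca cells, was listed at 0 in both 10–30 μm libraries and was at 0.0132 and 0.107 RPKM at 60–65 μm, and Hsd3b1, the highest of them on average, went from 0.119 and 0.0610 RPKM to 0.272 and 0.316 RPKM. Of the 8 blood and endothelial markers 6 were in the table, and their sum was 0.618 to 0.647 RPKM at 10–30 μm and 4.39 to 4.80 RPKM at 60–65 μm. Pecam1 made up most of it, at 0.567 and 0.531 RPKM at 10–30 μm and 4.70 and 4.19 RPKM at 60–65 μm, while Ptprc, which marks white blood cells, stayed at 0.00823 RPKM or less. From the smallest to the largest growing class 31.8% of all genes tested were higher and 31.5% were lower. Of the markers, 3 of 3 tested granulosa markers were higher (Cyp19a1, Nr5a2 and Inha), 3 of 3 tested theca and stroma markers were lower (the collagen genes Col1a1, Col3a1 and Col1a2, all of them stromal) and 1 of 1 tested blood and endothelial marker, Pecam1, was higher. Among the oocyte markers 1 of 10 was higher (Oosp1) and 5 were lower (Sycp3, Ddx4, Zp2, Nlrp5 and Zp3). The part of other cell types in the changes of the secreted factors was not tested.

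Gdf9, which is needed for follicles to grow past the primary stage, lies at chr11:53431023-53437904 on the plus strand and was the most abundant of the 4 transcripts. Its level was 419 RPKM in replicate A and 449 RPKM in replicate B at 10–30 μm, 501 and 561 RPKM at 40–45 μm, 538 and 544 RPKM at 50–55 μm, 579.95 and 529 RPKM at 60–65 μm, and 526 RPKM in GV oocytes. Both 10–30 μm libraries lay below all later libraries, which overlapped among themselves. Gdf9 ranked 11 among all 25965 entries in both 10–30 μm libraries, 8 in the 6 libraries of the larger classes and 6 in GV oocytes.

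Bmp15, an X-linked gene whose product pairs with GDF9, lies at chrX:6314107-6320721 on the minus strand. It was measured at 66.4 and 67.1 RPKM at 10–30 μm, 139 and 124 RPKM at 40–45 μm, 209.7 and 192 RPKM at 50–55 μm, 213 and 217 RPKM at 60–65 μm, and 269 RPKM in GV oocytes. The 4 size classes did not overlap, and GV oocytes had the highest value of the 9 columns. Its rank moved from 143 and 127 at 10–30 μm to 31 and 30 at 60–65 μm and 19 in GV oocytes.

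Fgf8 lies at chr19:45736798-45742915 on the minus strand. It was measured at 11.1 and 12.1 RPKM at 10–30 μm, 25.5 and 23.0 RPKM at 40–45 μm, 27.9 and 30.0 RPKM at 50–55 μm, 30.2 and 34.0 RPKM at 60–65 μm, and 26.4 RPKM in GV oocytes. The classes again did not overlap, although the highest 50–55 μm and the lowest 60–65 μm value nearly met, and the GV value fell between those of the 40–45 and 50–55 μm libraries. Fgf8 ranked 1627 and 1494 at 10–30 μm and 438 and 360 at 60–65 μm.

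Bmp6 lies at chr13:38345716-38499728 on the plus strand and is by far the longest of the 4 genes, at 154013 bp against 6118 to 6882 bp for the others. It was measured at 7.32 and 10.4 RPKM at 10–30 μm, 11.4 and 13.3 RPKM at 40–45 μm, 12.5 and 14.4 RPKM at 50–55 μm, 16.3 and 14.3 RPKM at 60–65 μm, and 15.7 RPKM in GV oocytes. The 10–30 μm libraries were the lowest. The 50–55 μm class overlapped both of its neighbours, whereas both 40–45 μm libraries lay below both 60–65 μm libraries. Replicate A was below replicate B in the first 3 classes, by 0.40, 0.16 and 0.20 on the log2 scale after scaling, and above it in the last.

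**Figure D1:**
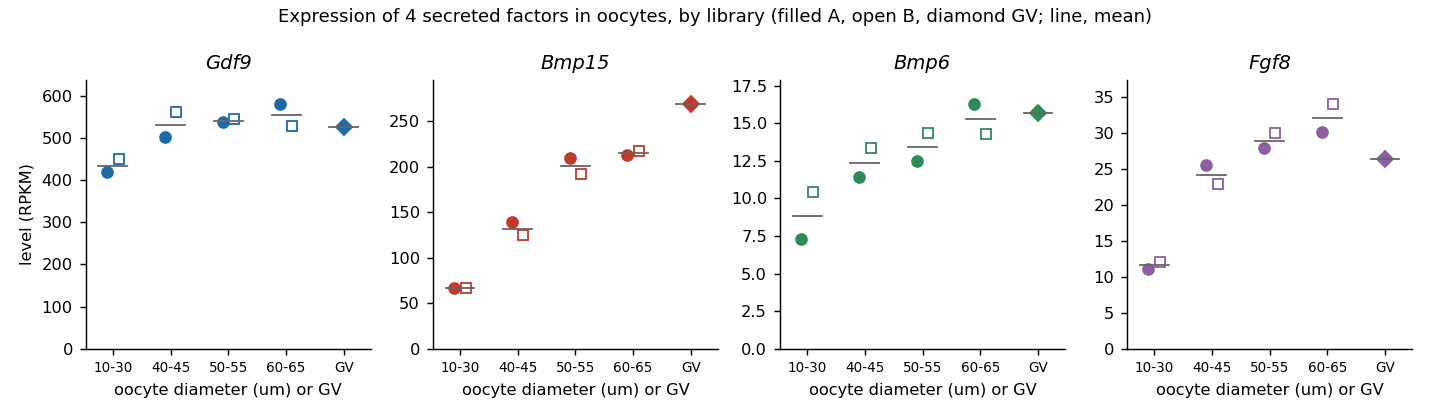
Level of Gdf9, Bmp15, Bmp6 and Fgf8 in RPKM (vertical axis from 0, a separate scale per gene) by oocyte diameter or GV stage, with a filled and an open symbol for replicates A and B and a line at the mean. Gdf9 starts at 419 and 449 RPKM and stays between 501 and 579.95 RPKM from 40–45 to 60–65 μm, whereas Bmp15 goes from 66.4 and 67.1 RPKM at 10–30 μm to 269 RPKM in GV oocytes.

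The order of the levels, Gdf9 above Bmp15 above Fgf8 above Bmp6, was found in all 9 columns. At 60–65 μm the class means were 554.3 ± 36.2 RPKM for Gdf9, 215 ± 2.89 RPKM for Bmp15, 32.1 ± 2.71 RPKM for Fgf8 and 15.3 ± 1.39 RPKM for Bmp6 (SD, n = 2 each). At 10–30 μm they were 434 ± 21.2, 66.8 ± 0.490, 11.6 ± 0.698 and 8.86 ± 2.18 RPKM in the same order (SD, n = 2 each), so that the higher Bmp6 library, at 10.4 RPKM, lay just below the lower Fgf8 library, at 11.1 RPKM. Behind these values stood 84546 to 217542 reads per library for Gdf9, 20205 to 162995 for Bmp15, 1492 to 8306 for Fgf8 and 1753 to 7497 for Bmp6, recovered from the steps of the RPKM values, so that counting error was at most 2.6%.

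The first comparison asked which of the 4 transcripts changed over growth from 10–30 to 60–65 μm, and all 4 were higher at 60–65 μm. Over the 10518 genes tested, 31.8% were higher and 31.5% were lower in this comparison. With limma on log2(RPKM + 0.1) and Benjamini-Hochberg adjustment over all genes tested, Bmp15 rose by 1.69 on the log2 scale (SE 0.113, 3.23-fold, adjusted p = 1.18e-05). Fgf8 rose by 1.46 (SE 0.112, 2.76-fold, adjusted p = 1.94e-05 by limma). Bmp6 rose by 0.81 (SE 0.150, 1.75-fold, adjusted p = 0.00179 by limma). Gdf9 rose by 0.36 (SE 0.108, 1.28-fold, adjusted p = 0.0186 by limma). Of all genes tested, 95.4% had a smaller log2 change than Bmp15, 94.2% a smaller one than Fgf8, 85.0% than Bmp6 and 69.1% than Gdf9. The call for Gdf9 was lost when either 10–30 μm library (adjusted p = 0.0625 without A and 0.0548 without B by limma) or replicate A at 60–65 μm (0.121) was left out. Each 60–65 μm library was above each 10–30 μm library for all 4 genes.

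From 10–30 to 40–45 μm 13.2% of genes tested were higher and 9.84% were lower, or 1386 and 1035 genes. Without scaling of the libraries the balance turned, with 1088 higher and 1521 lower. Fgf8 rose by 1.12 on the log2 scale (SE 0.112, 2.18-fold, limma adjusted p = 9.30e-04) and Bmp15 by 1.04 (SE 0.113, 2.06-fold, limma adjusted p = 0.00105). Bmp6 rose by 0.56 (SE 0.150, 1.48-fold, limma adjusted p = 0.0301) and Gdf9 by 0.36 (SE 0.108, 1.28-fold, limma adjusted p = 0.0456). Leaving out any 1 of the 8 libraries removed the call for Gdf9, with changes between 0.31 and 0.41. The Bmp6 call was lost without 5 of them: the change was 0.35 without 10–30 μm replicate A, 0.65 and 0.48 without 40–45 μm replicates A and B, and 0.57 without either 60–65 μm library. Without scaling of the libraries, the changes were 0.29 for Gdf9 (limma adjusted p = 0.0821) and 0.49 for Bmp6 (limma adjusted p = 0.0707).

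From 40–45 to 50–55 μm 5.65% of genes tested were higher and 3.10% were lower, or 594 and 326 genes, against 636 and 589 with quantile normalization. Bmp15 rose again, by 0.58 on the log2 scale (SE 0.113, 1.5-fold, limma adjusted p = 0.0220). The values for the others were 0.23 for Fgf8 (limma adjusted p = 0.220), 0.09 for Bmp6 (0.726) and 0.00 for Gdf9 (0.989), none past the threshold. The Bmp15 call was lost without replicate B at 40–45 μm, without either 50–55 μm library and without either 60–65 μm library, with changes between 0.46 and 0.65.

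From 50–55 to 60–65 μm 0% of the genes tested were higher and 0% were lower by limma at an adjusted p of 0.05, with 1429 genes at an unadjusted p under 0.05. With a pseudocount of 1 in place of 0.1, limma called 8 genes, and with the replicate letter as a block it called 152 higher and 78 lower. The log2 changes of the members were 0.15 for Bmp6, 0.11 for Fgf8, 0.06 for Bmp15 and 0.00 for Gdf9, with limma adjusted p of 0.709, 0.713, 0.858 and 0.997.

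Across both later steps, from 40–45 to 60–65 μm, 18.7% of genes tested were higher and 18.5% were lower, or 1966 and 1943 genes. This balance depended on the scaling, with 2294 higher and 1612 lower without it, and 1829 higher and 2221 lower with quantile normalization. Bmp15 rose by 0.65 on the log2 scale (SE 0.113, 1.56-fold, limma adjusted p = 0.00363) and Fgf8 by 0.34 (SE 0.112, 1.27-fold, limma adjusted p = 0.0428). The Fgf8 call was lost without replicate B at 40–45 μm (change 0.23), without either 50–55 μm library (0.34 and 0.34) and without either 60–65 μm library (0.44 without A and 0.26 without B). Bmp6, at 0.24 (limma adjusted p = 0.230), and Gdf9, at 0.00 (0.997), did not pass the threshold. These comparisons share libraries with each other.

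Plain ratios between the members within a library do not depend on how libraries are scaled. Class values and tests of the ratios used log2(RPKM + 0.1), which is not wholly free of scale. The ratio of Gdf9 to Bmp15, the paired factors, was 6.30 in replicate A and 6.69 in replicate B at 10–30 μm, then 3.61 and 4.51 in the 40–45 μm class, 2.56 and 2.84 in the 50–55 μm class, 2.73 and 2.44 in the 60–65 μm class, and 1.96 in GV oocytes. It was higher in both 10–30 μm libraries than in both 40–45 μm libraries, and higher there than in all libraries of the 2 largest classes, which overlapped. From 10–30 to 60–65 μm the log2 ratio fell by 1.33. An exact permutation test over the 2520 ways of assigning 8 libraries to 4 classes of 2, with the sum of squares between classes as its two-sided statistic, gave p = 0.0190, or 0.0762 after Benjamini-Hochberg adjustment over the 6 pairs of members. The smallest p this test can give is 0.0095.

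The ratio of Gdf9 to Fgf8 fell from 37.1 at 10–30 μm to 17.2 at 60–65 μm (exact permutation p = 0.0381, adjusted 0.0762). That of Bmp15 to Bmp6 went from 7.58 to 14.0 (exact permutation p = 0.0381, adjusted 0.0762). The remaining pairs had larger p-values: Gdf9 to Bmp6 went from 49.1 to 36.0 (exact permutation p = 0.1048, adjusted 0.1257), Bmp15 to Fgf8 from 5.71 to 6.68 (0.0952, adjusted 0.1257) and Bmp6 to Fgf8 from 0.754 to 0.478 (0.1333, adjusted 0.1333). None of the 6 pairs passed the threshold after adjustment, which does not show that the members kept a fixed ratio.

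**Figure D2:**
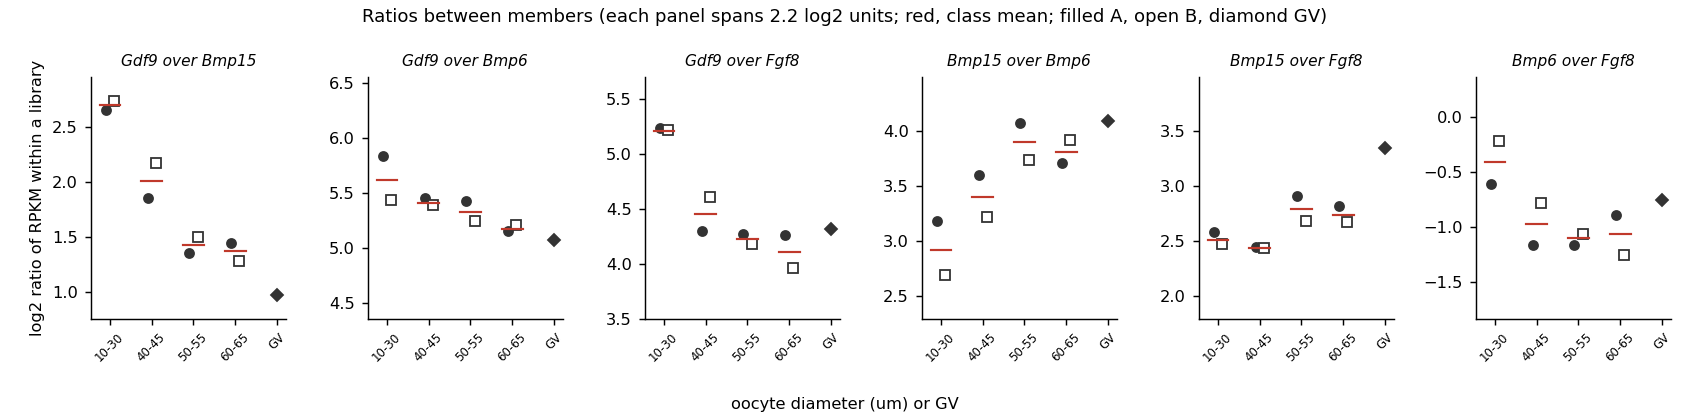
Log2 ratio of RPKM within a library for the 6 pairs of members by oocyte diameter or GV stage, with replicates A and B as filled and open symbols, a diamond for GV and a red line at the class mean. All panels span 2.2 log2 units, and the largest shift is that of Gdf9 over Bmp15, from a ratio of 6.48 at 10–30 μm to 2.58 at 60–65 μm.

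Transcription factors known to act upstream of oocyte genes were followed as 7 genes, all of which were tested. From 10–30 to 60–65 μm, 1 was higher and 3 were lower, beside 31.8% and 31.5% of all genes tested, with a median log2 change of -0.10 against 0.00 over all genes tested. Nobox, a homeodomain factor on which Gdf9 and Bmp15 expression is known to depend, was measured at 56.0 and 58.3 RPKM at 10–30 μm and 59.5 and 59.2 RPKM at 60–65 μm (log2 change 0.06, limma adjusted p = 0.643). Lhx8, another homeodomain factor of early follicles, was at 16.9 and 18.1 RPKM and then 17.5 and 15.0 RPKM (-0.10, limma adjusted p = 0.395). The bHLH factors were lower: Sohlh1 went from 49.6 and 45.0 RPKM to 1.17 and 1.74 RPKM (-4.95, limma adjusted p = 6.00e-06), and Sohlh2 from 8.36 and 8.18 RPKM to 1.17 and 1.49 RPKM (-2.55, limma adjusted p = 1.71e-05). Figla, a bHLH factor of the zona pellucida genes, went from 52.7 and 45.0 RPKM to 11.6 and 12.6 RPKM (-1.99, limma adjusted p = 8.26e-06). Nr6a1, a nuclear receptor known to repress Gdf9 and Bmp15, was higher, going from 5.02 and 5.44 RPKM to 11.2 and 9.63 RPKM (0.98, limma adjusted p = 8.32e-05).

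Among 30 other ligands of the TGF-beta family in the table, 4 were tested and all 4 were higher at 60–65 than at 10–30 μm, with a median log2 change of 1.26. The other 26 lay below the filter on low values. Over all genes tested, 31.8% were higher in this comparison. Tgfb2 was the most abundant, at 8.55 and 7.77 RPKM at 10–30 μm and 14.0 and 13.4 RPKM at 60–65 μm (log2 change 0.75, limma adjusted p = 0.00175). Bmp5, a close relative of Bmp6, went from 0.418 and 0.402 RPKM to 3.93 and 3.95 RPKM (2.99, limma adjusted p = 7.33e-06). Tgfb3 changed by 1.27 (limma adjusted p = 1.23e-05), and the inhibin subunit gene Inha, at 0.542 RPKM or less in every library, by 1.25 (5.21e-04). The summed level of the 30 ligands was 10.9 to 11.4 RPKM at 10–30 μm and 23.4 to 24.01 RPKM at 60–65 μm. Fgf8 alone was higher than this sum at 60–65 μm, with 30.2 and 34.0 RPKM, but not in replicate A at 10–30 μm, with 11.1 RPKM, nor in GV oocytes, with 26.4 RPKM against a sum of 28.8 RPKM. Of 21 other FGF ligands 1 was tested, Fgf9, which changed by 0.77 (limma adjusted p = 0.00664) from 0.753 and 0.669 RPKM to 1.44 and 1.13 RPKM. Fgf7 and Fgf16 were next in abundance, with means of 0.254 and 0.252 RPKM over the 9 columns, and were not tested.

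Receptors and signalling proteins of these pathways were measured in the oocyte itself, whereas the known target of the secreted factors is the granulosa cell. Of 17 TGF-beta family receptors and co-receptors 9 were tested, of which 4 were higher and 1 was lower at 60–65 than at 10–30 μm (median log2 change 0.41), beside 31.8% higher and 31.5% lower among all genes tested. Acvr1b, a type I receptor of activin, went from 5.06 and 6.47 RPKM to 12.7 and 11.2 RPKM (log2 change 1.05, limma adjusted p = 1.06e-04). Bmpr1b, a type I receptor of BMP15, went from 4.80 and 4.83 RPKM to 7.92 and 8.51 RPKM (0.76, limma adjusted p = 4.51e-04). The co-receptor genes Tgfbr3 and Rgmb changed by 1.62 (limma adjusted p = 1.69e-05) and 1.01 (2.08e-04). Tgfbr1, the type I receptor used by GDF9, fell by 0.32 on the log2 scale (limma adjusted p = 0.0283), from 5.45 and 6.35 RPKM to 4.36 and 4.99 RPKM.

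Of 7 FGF receptor genes 3 were tested and 1 was higher, Fgfr2, which went from 0.316 and 0.321 RPKM to 2.26 and 1.95 RPKM (log2 change 2.39, limma adjusted p = 7.10e-06). Fgfrl1, which lacks the kinase, and Fgfr1 changed by 0.01 and 0.12 (limma adjusted p = 0.943 and 0.585). Of 8 SMAD genes 5 were tested and 3 were higher (median 0.30). Among all genes tested 31.8% were higher, a share near that of 1 in 3 FGF receptors. Smad3 changed by 1.15 (limma adjusted p = 9.85e-05), Smad4, the common partner, by 0.38 (0.0351) and Smad2 by 0.30 (0.0176). Smad3 and Smad2 carry the signal of GDF9.

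Secreted inhibitors and processing enzymes act on the ligands outside or on their way out of the cell. Of 16 genes for secreted inhibitors 5 were tested and 4 were higher, with a median log2 change of 0.86, where 31.8% of all genes tested were higher. Twsg1, which binds BMPs together with chordin, was the most abundant and changed by 0.50 (limma adjusted p = 0.00446). Sost, Bmper and Dand5 changed by 2.37 (limma adjusted p = 4.57e-05), 1.67 (1.92e-05) and 0.86 (5.75e-04), each from less than 1 RPKM. Of 7 proprotein convertases, which cut the precursors of TGF-beta family ligands, 2 were tested and none was higher or lower. Furin was measured at 1.89 RPKM in replicate A and 6.21 RPKM in replicate B at 10–30 μm, 3.43 and 6.97 RPKM at 40–45 μm, 4.26 and 8.06 RPKM at 50–55 μm, and 8.84 and 7.04 RPKM at 60–65 μm. Replicate A was below replicate B in the first 3 classes, and the log2 change of 1.18 over growth had a limma adjusted p of 0.0732. Pcsk7 changed by -0.03 (limma adjusted p = 0.821), and Pcsk6, with a mean of 0.383 RPKM, was not tested.

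For each member, the 5 genes with the most similar course over the 9 columns were taken from 3724 genes with a mean of at least 5 RPKM. Likeness was measured as the root mean square (rms) difference of log2 values, each centred on its own mean, and is a description over columns that share libraries. Those of Gdf9 were Poc1a, Hirip3, Slc26a6, Mta3 and Usp30, with rms differences of 0.039 to 0.052. Those of Bmp15 were Meis2, Emilin2, Gpr1, Mest and Accsl (0.072 to 0.091). Those of Bmp6 were Kdm4a, Usp19, Ppfia1, Eps15l1 and Phc2 (0.051 to 0.066). Those of Fgf8 were Serpinc1, Fbxw20, D030018L15Rik, Tfap2c and Slc25a30 (0.094 to 0.131). No member was among the 5 nearest to another: the closest members were Gdf9 and Bmp6 (0.212) and the furthest apart Gdf9 and Bmp15 (0.588). Accsl, the most abundant of the 5 near Bmp15, ranged from 23.5 to 82.6 RPKM over the 9 columns, GV included.

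The genes next to the members did not share 1 course. Uqcrq, a subunit gene of respiratory complex III, begins 191 bp from the start of Gdf9 on the opposite strand, and its mean level was 2.14 RPKM at 10–30 μm and 1.93 RPKM at 60–65 μm (log2 change -0.14, limma adjusted p = 0.540). On the other side of Gdf9, Gm10447 was listed at 0 in the 10–30 and 60–65 μm libraries. Next to Bmp15, Shroom4 changed by 0.85 (limma adjusted p = 0.00136) and Nudt10, at 0.477 and then 0.522 RPKM, was not tested. Txndc5, a protein disulphide isomerase gene that ends 544 bp from the end of Bmp6 on the opposite strand, went from 17.5 to 36.9 RPKM (1.08, limma adjusted p = 2.49e-05), while Snrnp48 on the other side changed by 0.03 (0.899). Next to Fgf8, Fbxw4 went from 1.68 to 6.92 RPKM (1.98, limma adjusted p = 7.99e-06) and Npm3 from 8.70 to 2.57 RPKM (-1.70, limma adjusted p = 9.18e-05). The libraries were strand-specific, but whether the table was counted by strand is not given in the sources used here.

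Methylation of the 4 genes in 60–65 μm oocytes was read from the PBAT library, which has no replicate. A methylation level is the mean percent of methylated calls over CpG cytosines with at least 5 reads, each strand on its own, for a region with at least 5 such cytosines. The start is the 1 kb on each side of the first base of the gene, and the body is the rest up to its end. Intervals are 95% Wilson intervals of the pooled calls and cover counting error only.

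Starts were low in the 3 members that could be measured. The Gdf9 start was methylated at 3.11% over 50 cytosines, with 3.18% of 628 calls (2.07 to 4.87%). The Bmp6 start was at 2.99% over 183 cytosines, with 2.78% of 2012 calls (2.15 to 3.60%), and the Fgf8 start at 2.59% over 113 cytosines, with 2.71% of 1069 calls (1.90 to 3.87%). These 3 intervals overlap. Bmp15 had 26 CpGs in its start window and only 4 cytosines with at least 5 reads, so that no level was assigned, and 5 of 74 calls there were methylated (6.76%, 2.92 to 14.9%). Over 19669 genes measured in the same way the median start was at 3.87%, and 37.4% of genes lay below Gdf9, 35.2% below Bmp6 and 27.9% below Fgf8. The start window of Gdf9 holds the same cytosines as that of Uqcrq and cannot be assigned to 1 of them.

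Bodies differed widely between the members. The Bmp6 body was methylated at 51.2% over 472 cytosines, with 50.9% of 7580 calls (49.8 to 52.0%). The Bmp15 body was at 35.3% over 8 cytosines, with 37.2% of 148 calls (29.8 to 45.2%), and the Fgf8 body at 32.2% over 112 cytosines, with 31.7% of 1214 calls (29.2 to 34.4%). The Gdf9 body was at 9.05% over 34 cytosines, with 6.12% of 490 calls (4.32 to 8.61%). The intervals of Bmp15 and Fgf8 overlap, and those of Gdf9 and Bmp6 lie apart from the others. Gdf9, the transcript with the highest level, had the lowest body methylation of the 4.

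Over 20121 genes the median body was at 23.5%, and 29.1% of genes lay below Gdf9, 57.2% below Fgf8, 59.8% below Bmp15 and 76.3% below Bmp6. Among the 1756 genes with a mean of at least 10 RPKM at 60–65 μm the median body was at 43.0%, and 6.49% of these genes lay below Gdf9, 30.4% below Fgf8, 36.4% below Bmp15 and 67.9% below Bmp6. The Gdf9 level depended on the setting, at 4.88% over all cytosines with at least 1 read.

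**Figure D3:**
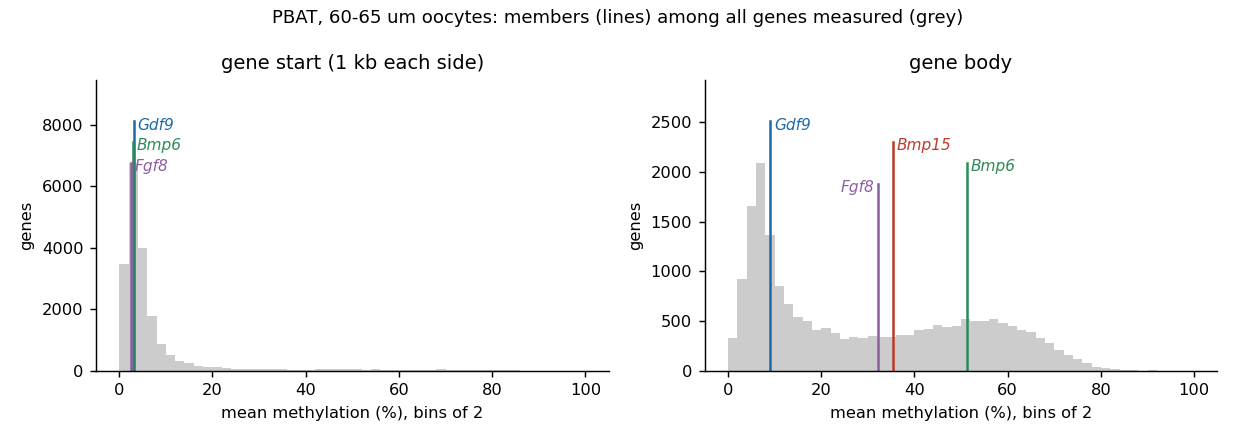
Number of genes (vertical axis) by mean PBAT methylation of the gene start and gene body in 60–65 μm oocytes (horizontal axis, percent, bins of 2), with the members as coloured lines. The measured member starts lie at 2.59 to 3.11%, in the peak near the median of 3.87%, whereas the bodies run from 9.05% for Gdf9 to 51.2% for Bmp6.

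Methylation was not even along the genes. In Fgf8 it was 2.57% in the first kilobase, 6.90% in the second and 5.56% of 72 calls in the third. It was 43.9% of 57 calls in the fourth (31.8 to 56.7%), 54.8% over 15 cytosines in the fifth kilobase and 39.5% over 63 cytosines in the sixth. In the 5 kb after the end of Fgf8 it was again 7.20%. In Gdf9 every interval of the body with a level was at 12.1% or less, and the 10 kb after its end were at 6.76%, while the sequence from 1 to 10 kb before its start, which includes the body of Uqcrq at 27.8%, was at 23.9%. In Bmp6 the body, divided into 10 equal intervals, ranged from 28.3% in the first to 75.1% in the eighth, and the sequence before the start was at 6.45%. In Bmp15 the 6 cytosines with enough reads in the fifth kilobase were at 40.8%. The sequences before and after Bmp15 were at 33.3% over 6 and 57.2% over 10 cytosines.

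**Figure D4:**
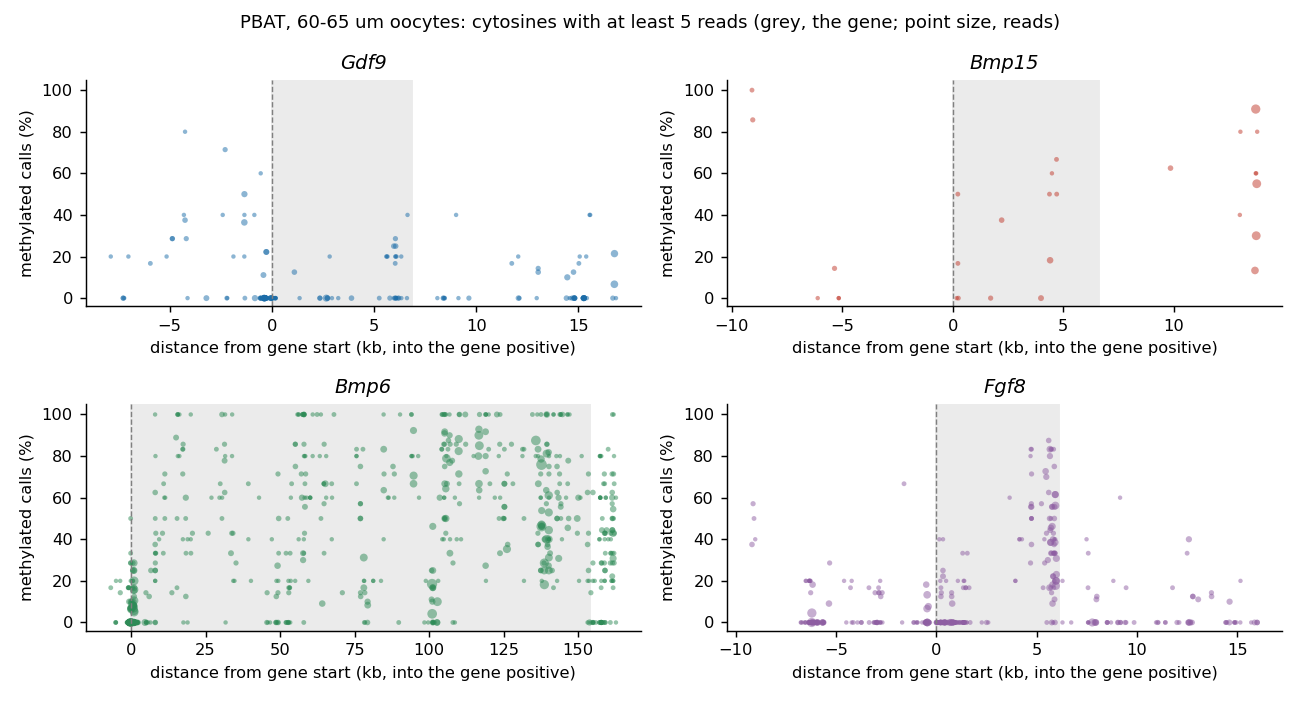
PBAT methylation (percent of methylated calls, vertical axis) of each cytosine with at least 5 reads by its distance from the gene start in kb, with the gene in grey, a dashed line at its start and larger points for more reads. The start windows are near 0 in Gdf9, Bmp6 and Fgf8, and in Fgf8 the level is 54.8% in the fifth kilobase against 6.90% in the second.

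RRBS gave a view over size classes at cytosines with at least 5 reads in all 6 libraries, a selection made after the data had been seen because libraries covered different positions. With 2 libraries per class no test was made. Starts stayed low: over 5 cytosines the Gdf9 start was between 0 and 2.16% in the 6 libraries, over 45 cytosines the Bmp6 start between 0 and 1.81%, and over 5 cytosines the Fgf8 start between 0 and 2.86%. In each of the 3 the 40–45 and 60–65 μm libraries overlapped. No RRBS library covered the Bmp15 start.

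In the Bmp6 body, over 6 cytosines, methylation was 3.51% in replicate A and 4.31% in replicate B of the 40–45 μm class, 34.5 and 32.3% in the 50–55 μm class, and 59.2 and 50.9% in the 60–65 μm class. The classes did not overlap at these positions, but over each library's own positions the 40–45 μm replicates were far apart, at 1.62% over 13 and 30.3% over 10 cytosines. The order of the classes was not kept under lower read minima. Over each library's own cytosines with at least 1 read, the Bmp6 body was at 28.4 and 18.9% in the 40–45 μm class and 69.3 and 49.4% in the 50–55 μm class, above the 39.9 and 43.9% of the 60–65 μm class. With at least 3 reads the class means were 24.4%, 54.5% and 47.3%. The 8 shared cytosines in the 10 kb after Bmp6, which lie in Txndc5, gave 0.535 and 1.71%, 14.2 and 23.1%, and 53.4 and 48.4% in the same order. Of the 6 body cytosines, 4 held the difference, with 69.7 to 92.9% at 60–65 μm, whereas those at 46309 and 52792 bp from the start stayed at 13% or less. The Bmp6 intron sequence printed above holds 3 of the 6 body cytosines and was chosen for its high level at 60–65 μm, so its RRBS calls are not a separate result. With 325 to 2253 calls per RRBS library, 4.36 and 8.30% of its calls were methylated in the 40–45 μm libraries, 50.2 and 40.3% in the 50–55 μm libraries, and 88.0 and 72.4% in the 60–65 μm libraries, with 7 of 8 calls in PBAT.

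In the Fgf8 body, over 18 cytosines, methylation was 1.5 and 0.443% in the 40–45 μm class, 10.5 and 2.30% in the 50–55 μm class, and 21.4 and 19.9% in the 60–65 μm class. The classes did not overlap, and the 50–55 μm replicates lay furthest apart. The 10 cytosines at 1028 to 1432 bp from the start stayed at 11.4% or less in all libraries, and the 8 cytosines at 5318 to 5955 bp held the difference, at 0 to 100% in the 60–65 μm libraries. The Fgf8 intron sequence printed above holds 4 of the 18 body cytosines and was also chosen for its high level at 60–65 μm, so its RRBS calls are not a separate result. With 96 to 259 calls per RRBS library, 1.79 and 2.94% of its calls were methylated in the 40–45 μm libraries, 19.7 and 7.63% in the 50–55 μm libraries, and 47.2 and 41.7% in the 60–65 μm libraries, and 33 of 63 calls (52.4%) in PBAT. For the Bmp6 promoter printed above, 0 calls of 104 to 152 were methylated in the 60–65 μm RRBS libraries and 11 of 266 (4.14%) in PBAT. The assays differ in their usual level: over the gene starts that each library measured, the median was 0.608 and 0.545% in these RRBS libraries and 3.87% in PBAT.

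**Figure D5:**
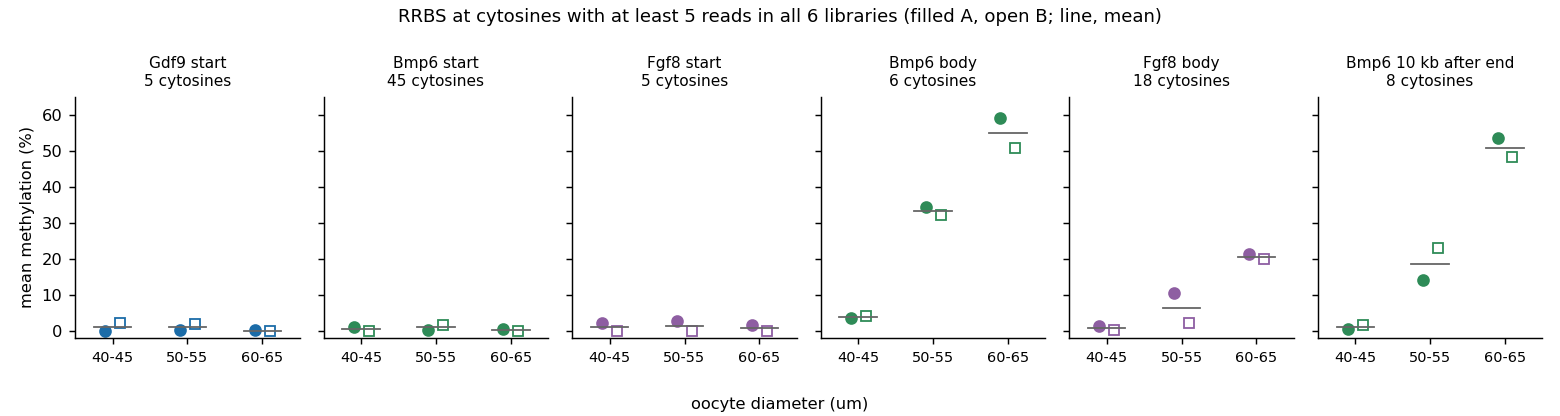
Mean RRBS methylation (percent, vertical axis) over cytosines with at least 5 reads in all 6 libraries, by oocyte diameter, for starts, bodies and the 10 kb after Bmp6, with replicates A and B as filled and open symbols and a line at the class mean. The starts stay at 2.86% or less, and the Bmp6 body goes from 3.51 and 4.31% at 40–45 μm to 59.2 and 50.9% at 60–65 μm.

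No cytosine of Bmp15 was shared by all RRBS libraries. In its body, over 5 cytosines each, methylation was 0% in replicate A and 1.96% in replicate B at 40–45 μm, 25.3% in replicate A at 50–55 μm and 35.3% in replicate B at 60–65 μm. Replicate B at 50–55 μm had no call there, and replicate A at 60–65 μm had 16 of 74 calls methylated (21.6%). In the Gdf9 body each RRBS library had at most 4 cytosines with at least 5 reads, and no level was assigned.

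The 3 larger size classes have both expression and methylation. From 40–45 to 60–65 μm the Bmp6 transcript changed by 0.24 on the log2 scale without passing the test and its shared body cytosines went from 3.51 and 4.31% to 59.2 and 50.9%. Over the same classes the Fgf8 transcript rose by 0.34 and its shared body cytosines went from 1.5 and 0.443% to 21.4 and 19.9%. These are values side by side from separate libraries, and a relation between them was not tested.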

How the data were processed

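RNA-seq, RRBS and PBAT libraries of pooled mouse oocytes were used. The authors trimmed reads with Trim Galore (0.2.8 for RNA-seq, 0.3.5 otherwise), aligned RNA-seq reads to GRCm38 with TopHat2 2.0.9 and bisulphite reads with Bismark (0.14.0 for RRBS, 0.10.0 for PBAT), and removed duplicate reads from PBAT. They deposited 1 table of RPKM values per gene with its GRCm38 coordinates. The tool that made this table is not given in the sources used here. Their deposited methylation files list, per CpG cytosine with a read, a percent and the 2 counts of calls behind it, methylated and unmethylated, replicates kept apart. All positions used lay on CpGs of GRCm38. RRBS libraries held 29942043 to 57215134 calls. PBAT held 98148116 calls at 29460480 positions, of which 6619688 had at least 5 reads. PCR copies cannot be recognised in RRBS, so intervals cover counting error only.

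Because the table holds RPKM and not counts, changes were tested on log2(RPKM + 0.1) by limma 3.58.1 in R 4.3.3, its prior variance following the mean level. Fold changes are on that scale. Libraries were scaled by a trimmed mean (30% by ratio, 5% by level, factors 0.951 to 1.057). A gene was tested if 2 of the 8 growing libraries reached 0.5 RPKM. There was 1 fit with 4 class means, with Benjamini-Hochberg adjustment and a threshold of 0.05. The 4 members all passed this filter. The script was checked on simulated data. Replicates correlated at 0.986 to 0.995 and no A and B pair of a size class shared an identical value above 0. Library totals were found from the steps of low values. Exon lengths of 1350 to 3060 bp were then fitted, as those that brought the values of each member nearest to whole reads. The largest distance left was 0.0182 of a read, which is the quantity fitted and not an independent check. Python 3.11.15 with numpy 2.4.6, pandas 2.3.3, scipy 1.17.1 and matplotlib 3.10.9 was used elsewhere. Promoters came from RefSeq on GRCm38.p6, where Bmp15 and Bmp6 were matched by symbol, 2 of the 4 members.

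Members, gene lists and tests were chosen with earlier results of these data known. Besides the members, genes were named by rule: the 5 nearest in course to each member, up to 3 with the highest mean and up to 4 with the largest change past the threshold from each list, and the neighbours. Alternatives were the scaling, pseudocount, filter, variance model, libraries in the fit, replicate block, read minimum, strands, pooling and start window.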

Additional observations from a re-analysis of the deposited data

How the results depend on the processing

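Under 17 alternative settings the log2 changes of Bmp15 and Fgf8 from 10–30 to 40–45 μm, of Bmp15 from 40–45 to 60–65 μm, and of Bmp15, Fgf8 and Bmp6 from 10–30 to 60–65 μm kept their direction and stayed past the threshold. No ratio between members passed the threshold in the main test or in any of 60 alternatives. This says nothing of their stability, since a test that is not passed does not show that nothing changed. Of 340 alternatives for log2 changes, 276 kept direction and call, 37 lost the call and 27 changed sign, all of the latter for changes near 0 that were not called. The cause was not tested.

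The calls that were lost were those of Gdf9 and Bmp6 from 10–30 to 40–45 μm, of Bmp15 from 40–45 to 50–55 μm, of Fgf8 from 40–45 to 60–65 μm and of Gdf9 from 10–30 to 60–65 μm. From 10–30 to 40–45 μm, Gdf9 had 0.29 without scaling, 0.41 without the filter and 0.37 with only the libraries of both classes, and Bmp6 0.49 without scaling, 0.50 with quantile normalization and 0.58 with only these libraries. From 10–30 to 60–65 μm, Gdf9 had 0.37 without the filter and 0.36 with only the libraries of both classes. From 40–45 to 50–55 μm, Bmp15 had 0.56 without the filter. From 40–45 to 60–65 μm, Fgf8 had 0.30 without the filter and 0.33 with only these libraries. Leaving out 1 library at a time gave 0.31 to 0.41 for Gdf9 and 0.35 to 0.75 for Bmp6 from 10–30 to 40–45 μm, 0.31 to 0.43 for Gdf9 from 10–30 to 60–65 μm, 0.46 to 0.68 for Bmp15 from 40–45 to 50–55 μm, and 0.23 to 0.44 for Fgf8 from 40–45 to 60–65 μm. The libraries that decided these calls are named in the report.

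Changes of Gdf9 that turned sign were 0.00 with quantile normalization, -0.02 without the filter and 0.00 with only these libraries from 40–45 to 50–55 μm, 0.00, -0.04 and -0.01 under the same settings from 40–45 to 60–65 μm, and 0.03 without scaling, 0.00 with quantile normalization and 0.00 with the stricter filter from 50–55 to 60–65 μm. Leaving out 1 library gave -0.06 to 0.04, -0.06 to 0.07 and -0.06 to 0.06 for these steps, -0.01 to 0.18 for Bmp6 from 40–45 to 50–55 μm and 0.00 to 0.13 for Bmp15 from 50–55 to 60–65 μm.

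Over all genes, 2421 were called from 10–30 to 40–45 μm and 962 with only the libraries of both classes. From 40–45 to 50–55 μm 920 were called and 549 without the filter, and from 50–55 to 60–65 μm 0, with 8 at a pseudocount of 1. Leaving out 1 library gave 861 to 2921, 0 to 1624 and 0 to 0 calls for the 3 steps, with 0 in the second without replicate B at 40–45 μm or replicate A at 50–55 μm, and 1308 (without replicate A at 60–65 μm) to 4451 from 40–45 to 60–65 μm, where 3909 were called. The labels do not say that a replicate letter marks anything shared, so the fit had no replicate block. Differences between A and B went together among the 3 smaller classes, with correlations of 0.59 to 0.67 over genes, but not with 60–65 μm, at -0.23 to 0.11. The replicate block gave 3321 calls from 10–30 to 40–45 μm, 1851 from 40–45 to 50–55 μm and 230 from 50–55 to 60–65 μm and changed no call of a member. With the letters of 60–65 μm swapped, a pairing added after seeing the data, the block gave 7511 calls from 10–30 to 60–65 μm, against 7296 with the letters as labelled and 6652 without a block. The alternative of DESeq2 for counts was not run, since the table holds RPKM.

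Of 204 alternatives for methylation levels, 156 stayed within a tolerance and 48 moved beyond it. The tolerance was the SD of the 2 replicates for RRBS and the distance from the middle of the interval to its end for PBAT. Leaving out 1 RRBS replicate can never exceed it, and replicates that lie far apart widen it, so the 156 do not measure stability. In PBAT, the Gdf9 start was 0% with at least 10 reads, 1.32% within 500 bp and 5.77% within 2 kb, and its body 4.88% with 1 read, 6.55% with 3 reads, 6.12% over pooled calls and 6.80% with strands summed. The Bmp6 start was 1.98% within 500 bp and its body 46.7% with 10 reads, 47.3% beyond 500 bp and 53.1% beyond 2 kb. The Fgf8 start was 3.66% with 10 reads and 3.78% within 2 kb, and its body 28.3% with 3 reads, 41.7% with 10 reads, 27.9% with strands summed, 25.6% beyond 500 bp and 40.6% beyond 2 kb. In RRBS, the Bmp6 start at 40–45 μm was 0.826% with 1 read, 1.00% with 10 reads, 0.703% pooled, 0.636% within 500 bp and 0.672% at shared positions. The Bmp6 body was 59.3% with 1 read, 54.5% with 3 reads and 15.9% beyond 500 bp at 50–55 μm, and 41.9% with 1 read, 47.3% with 3 reads, 60.5% pooled, 30.9% beyond 500 bp and 55.0% at shared positions at 60–65 μm. With 1 or 3 reads the 50–55 μm mean of the Bmp6 body was thus above that of 60–65 μm. The Fgf8 start was 1.77% with 1 read, 0.630% with 10 reads, 1.64% within 500 bp and 0.704% within 2 kb at 40–45 μm, and 2.69% with 1 read at 50–55 μm. The Fgf8 body was 0.823% with 1 read, 0.902% with 3 reads, 1.30% with 10 reads, 0.738% pooled, 0.825% beyond 500 bp and 1.86% beyond 2 kb at 40–45 μm, and 19.1, 22.3 and 15.8% with 1, 3 and 10 reads, 15.1% pooled, 17.8% beyond 500 bp, 39.5% beyond 2 kb and 20.6% at shared positions at 60–65 μm. Few covered positions limit the methylation of Bmp15 and of the Gdf9 body, and 1 library per assay or 2 per class limit all comparisons.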
